A study of Mus musculus with 2 samples.

Results

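The genes described here are the 10 components of the RANK and M-CSF axis that drives osteoclast formation, out of 31054 entries in the feature list of the 2 libraries. They were chosen by name: the ligands Tnfsf11 (RANKL), Csf1 (M-CSF) and Il34, the decoy receptor Tnfrsf11b (OPG), the receptors Tnfrsf11a (RANK) and Csf1r, the transcription factor Nfatc1, the fusion proteins Dcstamp and Ocstamp, and the calcitonin receptor Calcr. All 10 have a row in both matrices, and their UMIs were summed by cell class and library.

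The cells came from the callus that forms 4 days after a 3 mm resection of rib in mice aged 8 to 12 weeks. The Control library carried Sox9:CreER, R26:tdT and 1 floxed Smo allele. The Smo cKO library carried Sox9:CreER, R26:tdT and both floxed alleles, so the controls share the driver and the reporter. A legend of the study gives 3 tamoxifen injections for the animals, 7, 6 and 5 days before resection. Its text names only the Smo cKO genotype for them. Smo is the transducer of Hedgehog signals, and the driver recombines in cells that express Sox9 when tamoxifen is given. Callus cells of 3 animals were pooled for each genotype and passed a 40 micron filter, so each genotype is 1 library, no test compares the genotypes, and every interval below covers counting error only.

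Osteoclasts are multinucleated bone-resorbing cells formed by fusion of myeloid precursors. M-CSF, and in some tissues IL-34, acts through CSF1R to keep the precursors alive, and RANKL on stromal, osteogenic and lymphoid cells acts through RANK to induce NFATc1, the leading transcription factor of the osteoclast program. OPG is secreted and binds RANKL in place of RANK, DC-STAMP and OC-STAMP are needed for fusion, and the calcitonin receptor appears late in osteoclast maturation.

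After filtering, 10057 Control and 9507 Smo cKO cells were kept, with medians of 8367 and 9092 UMIs. Cells were placed in classes from marker lists that hold none of the 10 genes, and 6.69% and 6.40% stayed unnamed. The classes used most were connective-like (6821 and 5722 cells, medians of 11080 and 13811.5 UMIs), macrophage or monocyte-like (1577 and 2041 cells, 2391 and 3140 UMIs) and osteoclast-like (284 and 169 cells, 9629.5 and 12129 UMIs). In the osteoclast-like class, Acp5 (TRAP) was found in 99.8% and Ctsk (cathepsin K) in 99.6% of cells over both libraries, whereas Oscar was found in 22.3% and Siglec15 in 1.10%, and Ocstamp was among its 10 leading genes although it was not used to form it. By this gate, 2.82% of Control and 1.78% of Smo cKO cells were osteoclast-like. Smo itself, the targeted gene, was at 19.0 and 12.4 CPM (counts of UMIs scaled to the total of the class, the usual CPM unit) in connective-like cells, a log2 ratio of -0.62 (95% interval -0.73 to -0.51) for Smo cKO over Control. Macrophage or monocyte-like cells held 14 and 9 Smo UMIs, a log2 ratio of -1.40 (-2.79 to -0.09), and osteoclast-like cells held 1 and 8. A UMI of the tdTomato reporter was found in only 51 Control and 124 Smo cKO connective-like cells. How many cells were recombined is thus not shown by these values. Of the barcodes, 613 occurred in both matrices and 599 were kept in both. In 484 of these the shallower copy held under 5% of the UMIs of the deeper one (medians of 601 and 37455 UMIs), and 336 of those shallow copies were in the Control library. Without the shallower copies each of the 55 member ratios checked stayed inside its interval. Ratios of Smo and of other genes outside the 10 members were not among them. The summed level of 10 connective markers reached 2765 and 2768 CPM in the osteoclast-like class, whereas the connective-like class itself had 34277 and 29486 CPM. The part of such shared RNA in the values below was not tested.

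RefSeq promoter windows (build GRCm38.p6) were matched for 4 of the members. The 250 bases before the start are shown for the RANKL and RANK pair and for the main stromal ligand Csf1, each 5′ to 3′ on the strand of its gene. Capitals mark matches, on either strand, to TATAA (the TATA box), CCAAT (the CAAT box), GGGCGG (the GC box), TGANTCA (the core bound by AP-1), GAGGAA (bound by PU.1) or GGAAA (the core bound by NFAT factors). The Tnfsf11 window is chr14:78308044-78308293 (minus strand), the Tnfrsf11a window chr1:105780473-105780722 (plus strand) and the Csf1 window chr3:107760470-107760719 (minus strand).
Tnfsf11: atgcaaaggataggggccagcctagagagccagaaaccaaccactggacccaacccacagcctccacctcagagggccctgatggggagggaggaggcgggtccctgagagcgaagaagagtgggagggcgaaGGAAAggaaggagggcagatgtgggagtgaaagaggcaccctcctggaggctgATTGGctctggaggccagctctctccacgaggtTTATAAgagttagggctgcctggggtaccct
Tnfrsf11a: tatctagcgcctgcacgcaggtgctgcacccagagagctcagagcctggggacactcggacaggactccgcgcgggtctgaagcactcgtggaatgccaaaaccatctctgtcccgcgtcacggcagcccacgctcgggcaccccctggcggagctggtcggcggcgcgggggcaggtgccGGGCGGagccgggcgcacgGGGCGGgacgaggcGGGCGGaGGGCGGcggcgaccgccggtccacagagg
Csf1: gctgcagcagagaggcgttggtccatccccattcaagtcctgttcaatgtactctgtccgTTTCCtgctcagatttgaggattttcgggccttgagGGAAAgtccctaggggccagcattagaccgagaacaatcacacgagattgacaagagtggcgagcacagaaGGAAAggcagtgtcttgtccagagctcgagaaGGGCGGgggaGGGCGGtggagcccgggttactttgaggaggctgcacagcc
The Tnfsf11 window held the TATA box, the CAAT box and the NFAT core, the Tnfrsf11a window held 4 GC boxes, and the Csf1 window held 2 GC boxes and 3 NFAT cores. Of all 32851 windows, 22.8% held the TATA box, 33.8% the CAAT box, 32.7% the GC box, 6.75% the AP-1 core, 23.3% the PU.1 letters and 55.6% the NFAT core. GC content was 60.4% for Tnfsf11, 73.6% for Tnfrsf11a and 56.4% for Csf1, beside a median of 52.4% over all windows. A match is only a string of letters, and nothing about factor binding was measured.

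Tnfsf11 (chr14:78277445-78308043, minus strand, GRCm38) was a connective-like transcript. These cells held 1767 of its UMIs in Control and 1921 in Smo cKO, which is 98.2% and 96.3% of the gene's UMIs, while they held 85.7% and 80.7% of all UMIs. Its level there was 19.8 CPM (18.9 to 20.7) and 21.5 CPM (20.5 to 22.5), a log2 ratio of 0.12 (0.02 to 0.21), and at least 1 UMI was found in 15.6% and 16.5% of the cells. The small T or NK-like class lay as high, at 34.9 CPM from 3 UMIs and 25.3 CPM from 6 UMIs, with intervals that contain the connective-like values, as did the neutrophil-like class in Control, from 2 UMIs. In connective-like cells with at most 2000 genes the log2 ratio was 0.78. Levels were 2.04 and 2.14 CPM in macrophage or monocyte-like cells, and osteoclast-like cells held 0 and 2 UMIs, where 0 UMIs allow up to 1.02 CPM. With every cell thinned to 1000 UMIs, 1.79% and 1.99% of connective-like cells held Tnfsf11, against 0.206% and 0.256% of macrophage or monocyte-like cells.

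Within the connective-like class Tnfsf11 differed by subset. The largest subset, marked by Tnc and Inhba (3450 and 3580 cells), was at 23.0 and 25.6 CPM, a log2 ratio of 0.15 (0.05 to 0.26). The Sfrp4, Eln and Col14a1 subset (1540 and 538 cells) was lower, at 7.19 and 5.57 CPM. In the Fmod, Acan and Col11a1 subset, which carries cartilage matrix genes (444 and 412 cells), Tnfsf11 was at 18.9 CPM (15.3 to 23.2) in Control and 9.07 CPM (6.51 to 12.3) in Smo cKO, a log2 ratio of -1.06 (-1.63 to -0.52). This was the one member ratio past 2-fold among the 4 members at 10 CPM or more in that subset, where 0.9% of 7554 genes lay 2-fold or more below Control and 1.91% lay 2-fold or more above it. It rests on 93 and 41 UMIs. Under the alternative settings described at the end this ratio ran from -1.17 to -0.56, so it was not past 2-fold in all of them. In cells with at most 2000 genes it was -0.61 (-2.66 to 1.37), from 6 and 5 UMIs. Connective-like cells with 2 subsets at close levels, left without a subset name, were 1208 in Control and 1090 in Smo cKO. Their Tnfsf11 was also lower in Smo cKO, at 11.3 CPM (9.56 to 13.2) against 18.5 CPM (16.3 to 20.9) in Control. The few osteoblast marker cells, 7 and 2, held no Tnfsf11 UMI. Cycling and non-cycling connective-like cells were close, at 20.4 and 19.4 CPM in Control and 23.1 and 20.2 CPM in Smo cKO.

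Tnfrsf11b (chr15:54250619-54278484, minus strand), the decoy for RANKL, had its highest levels outside the main connective population. Epithelial or mesothelial-like cells, only 13 and 23 in number, were at 29.9 CPM (8.14 to 76.5) and 69.2 CPM (42.8 to 106). Connective-like cells were at 3.83 CPM (3.44 to 4.26) in Control and 6.61 CPM (6.09 to 7.16) in Smo cKO, from 342 and 591 UMIs, a log2 ratio of 0.79 (0.59 to 0.98). Both large subsets were higher in Smo cKO, with 4.06 and 7.52 CPM in the Tnc and Inhba subset and 3.02 and 7.80 CPM in the Sfrp4, Eln and Col14a1 subset. The Fmod, Acan and Col11a1 subset ran the other way, at 4.68 and 1.99 CPM (log2 ratio -1.23, -2.53 to -0.07), from 23 and 9 UMIs. Endothelial-like cells held 9 UMIs in Control and 1 in Smo cKO.

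Set side by side, RANKL made up 83.8% (82.1 to 85.3) of the summed Tnfsf11 and Tnfrsf11b UMIs of connective-like cells in Control and 76.5% (74.8 to 78.1) in Smo cKO. UMIs are not divided by length and this share is a comparison between libraries only. In connective-like cells with at most 2000 genes a lower share in Smo cKO was not seen. There Tnfsf11 held 67 and 56 UMIs, a log2 ratio of 0.78 (0.24 to 1.31). Tnfrsf11b held 29 and 23 UMIs, a log2 ratio of 0.70 (-0.16 to 1.54). The values that follow are again for cells without this limit. The RANKL share was 85.0% and 77.3% in the Tnc and Inhba subset. In the Sfrp4, Eln and Col14a1 subset it was 70.4% and 41.7%, from 125 and 60 UMIs in all. In the Fmod, Acan and Col11a1 subset, where both genes were lower in Smo cKO, it was 80.2% and 82.0%, with overlapping intervals.

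Csf1 (chr3:107741048-107760469, minus strand) was spread over more stromal classes than Tnfsf11. Connective-like cells held 95.8% and 94.6% of its UMIs, at 51.0 CPM (49.6 to 52.5) in Control and 70.2 CPM (68.5 to 72.0) in Smo cKO, a log2 ratio of 0.46 (0.41 to 0.52). Epithelial or mesothelial-like cells were at 89.6 and 109 CPM, mural-like cells at 42.0 and 56.0 CPM and endothelial-like cells at 27.6 and 28.4 CPM, and the intervals of mural-like and connective-like cells overlapped in both libraries. In the myeloid classes it was low, at 10.2 and 10.3 CPM in macrophage or monocyte-like cells and 4.08 and 8.48 CPM in osteoclast-like cells. A Csf1 UMI was found in 35.5% and 48.2% of connective-like cells. After thinning to 1000 UMIs the shares were 6.03% and 7.09%, a difference of 1.06 points (0.172 to 1.957), beside 1.33% and 0.658% of muscle-like cells.

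The subset order of Csf1 was the reverse of that of Tnfsf11 for the 2 larger subsets. The Sfrp4, Eln and Col14a1 subset was highest, at 132 and 169 CPM (log2 ratio 0.36, 0.23 to 0.48), the Tnc and Inhba subset was at 37.2 and 66.7 CPM (0.84, 0.77 to 0.92), and the Fmod, Acan and Col11a1 subset was at 24.2 and 33.4 CPM (0.46, 0.11 to 0.82). All 3 subsets were higher in the Smo cKO library. In the Tnc and Inhba subset, where 1.12% of 7243 genes lay 2-fold or more above Control and 0.138% lay 2-fold or more below it, none of the 3 members at 10 CPM or more was past 2-fold. The same held for 3 members in the Sfrp4, Eln and Col14a1 subset, beside 2.58% and 0.418% of 7182 genes. The plot of subset levels shows the opposite subset order of the ligands.

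**Figure D1:**
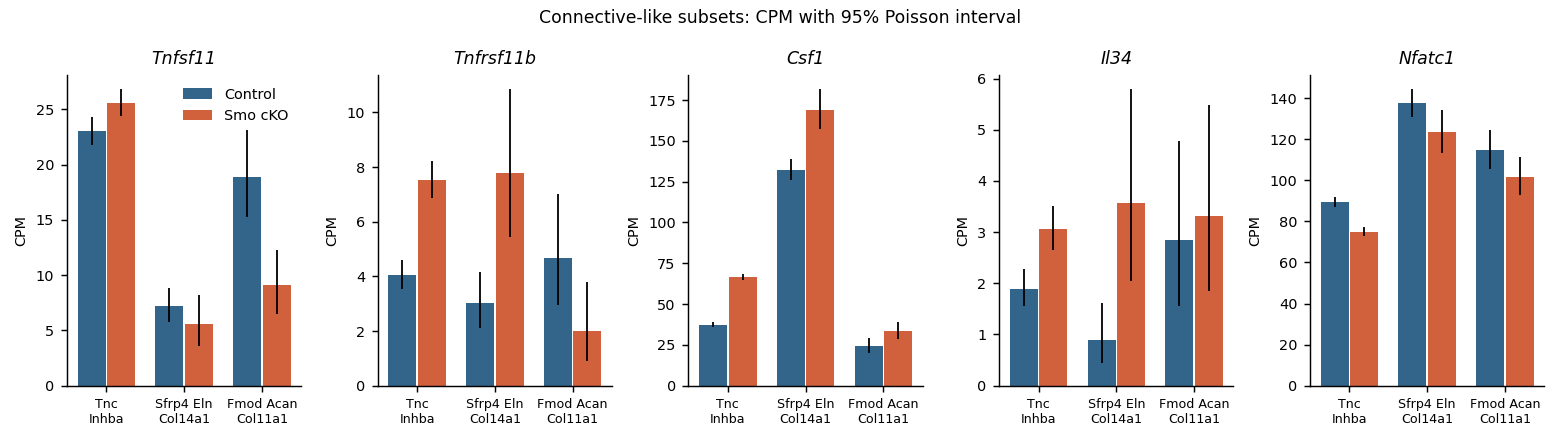
CPM of 5 members in the 3 largest named connective-like subsets, with bars for the Control and Smo cKO libraries and lines for the 95% Poisson interval (each y axis starts at 0 and has its own scale). Tnfsf11 was highest in the Tnc and Inhba subset (23.0 and 25.6 CPM) and Csf1 in the Sfrp4, Eln and Col14a1 subset (132 and 169 CPM).

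The direction of the Csf1 difference depended on the gene limit. The study kept cells with at most 2000 detected genes, a limit that 58.0% of Control and 59.4% of Smo cKO cells exceed and that was not applied here. Among the 1626 and 968 connective-like cells at or below it, Csf1 was at 123 CPM in Control and 93.1 CPM in Smo cKO, a log2 ratio of -0.40 (-0.60 to -0.21). Within those same cells each of the 3 subsets had the higher value in Smo cKO, with 52.5 and 57.5 CPM for Tnc and Inhba, 164 and 193 CPM for Sfrp4, Eln and Col14a1, and 20.1 and 31.7 CPM for Fmod, Acan and Col11a1, all with ratio intervals that contain 0. The subset with the most Csf1, Sfrp4, Eln and Col14a1, was 44.3% of those cells in Control but 22.7% in Smo cKO. Above the limit, in 5195 and 4754 cells, Csf1 was at 45.2 and 69.4 CPM, a log2 ratio of 0.62 (0.56 to 0.68). There the Sfrp4, Eln and Col14a1 subset was 15.8% of the cells in Control and 6.69% in Smo cKO. The part of these shares in the direction of the difference was not tested.

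**Figure D2:**
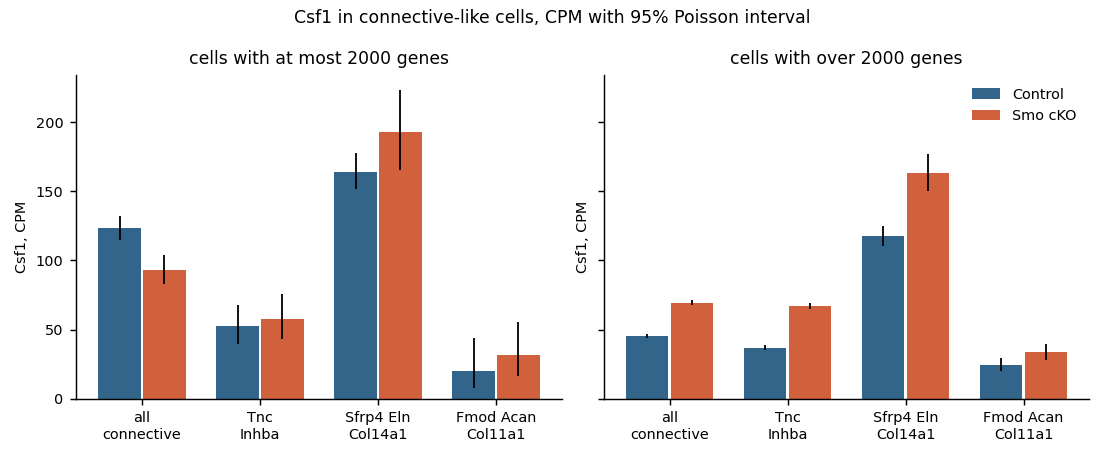
Csf1 CPM in connective-like cells with at most 2000 (left) and over 2000 (right) detected genes, as bars for each library with 95% Poisson intervals. The pooled bars run in opposite directions on the 2 sides (123 and 93.1 CPM at left, 45.2 and 69.4 CPM at right), while each subset's Smo cKO bar is the higher one on both sides.

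Il34 (chr8:110741829-110805924, minus strand), the second ligand of CSF1R, stood out in the mural-like class, the cells around vessels. With only 39 and 40 cells, mural-like cells held 20 and 31 UMIs, at 64.6 CPM (39.5 to 99.8) in Control and 64.3 CPM (43.7 to 91.3) in Smo cKO. At least 1 UMI was found in 33.3% and 42.5% of them, and in 2.21% and 4.28% of connective-like cells. Connective-like cells were at 1.84 CPM (1.57 to 2.14) and 2.96 CPM (2.62 to 3.34), a log2 ratio of 0.69 (0.40 to 0.98), which was 1.28 in cells with at most 2000 genes. Exon sequence of Il34 overlaps the spans of Gm15894 and Gm15895 on the other strand, and whether strand was used in counting is not given in the sources used here. In connective-like cells Csf1 made up 96.5% and 96.0% of the summed UMIs of the 2 CSF1R ligands.

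Csf1r (chr18:61100598-61132149, plus strand), the receptor of both, was at similar levels in the 2 myeloid classes. Macrophage or monocyte-like cells were at 444 CPM (424 to 464) in Control and 346 CPM (333 to 360) in Smo cKO, a log2 ratio of -0.36 (-0.44 to -0.27). Osteoclast-like cells were at 449.9 CPM (426 to 475) and 369 CPM (345 to 394), a log2 ratio of -0.29 (-0.41 to -0.16). Within each library the intervals of the 2 classes overlap. Of the macrophage or monocyte-like cells, 63.5% and 63.6% held a UMI, but thinned to 1000 UMIs the shares were 36.7% and 29.9%, a difference of -6.84 points (-10.04 to -3.65). Muscle-like cells were at 5.35 and 3.62 CPM, from 9 and 13 UMIs, and connective-like cells at 10.9 and 9.03 CPM. Exon sequence of Csf1r overlaps the span of Hmgxb3 on the other strand.

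By macrophage subset, Csf1r was highest where Ccl8, Mrc1 and C1q genes mark the cells (224 and 170 cells), at 733 and 688 CPM, with a log2 ratio of -0.09 (-0.32 to 0.13). The subset with Arg1, Spp1 and Gpnmb (741 and 1264 cells) was at 364 CPM (340 to 389) in Control and 307 CPM (292 to 323) in Smo cKO. Monocyte marker cells (41 and 74) were at 380 and 306 CPM. Cells with no subset were at 429 and 320 CPM, and those with 2 subsets close at 588 and 446 CPM. The Arg1 subset made up 47.0% of macrophage or monocyte-like cells in Control and 61.9% in Smo cKO. The part of this difference in the Csf1r ratio of the class was not tested. Summed hemoglobin levels were also unequal in this class, at 687 and 2017 CPM, and their part in the ratios was not tested.

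Tnfrsf11a (chr1:105780718-105847981, plus strand), the receptor for RANKL, was highest in osteoclast-like cells. They were at 83.3 CPM (73.2 to 94.4) in Control and 86.1 CPM (74.7 to 98.8) in Smo cKO, from 245 and 203 UMIs, a log2 ratio of 0.05 (-0.23 to 0.32). Macrophage or monocyte-like cells were at 35.3 CPM (30.02 to 41.4) and 34.5 CPM (30.4 to 39.0), a log2 ratio of -0.03 (-0.33 to 0.26). Both ratio intervals contain 0, which compares 2 libraries only and does not show that the genotypes are alike. In osteoclast-like cells with at most 2000 genes the ratio was -0.27, outside the interval above. Dendritic-like cells were at 27.2 and 21.2 CPM and endothelial-like cells at 19.3 and 11.1 CPM, with intervals that overlap each other, and connective-like cells were at 1.01 and 0.91 CPM. A UMI was found in 52.1% and 66.9% of osteoclast-like cells, while thinned to 1000 UMIs the shares were 5.73% and 8.88%, with a difference of 3.14 points (-1.67 to 8.82).

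**Figure D3:**
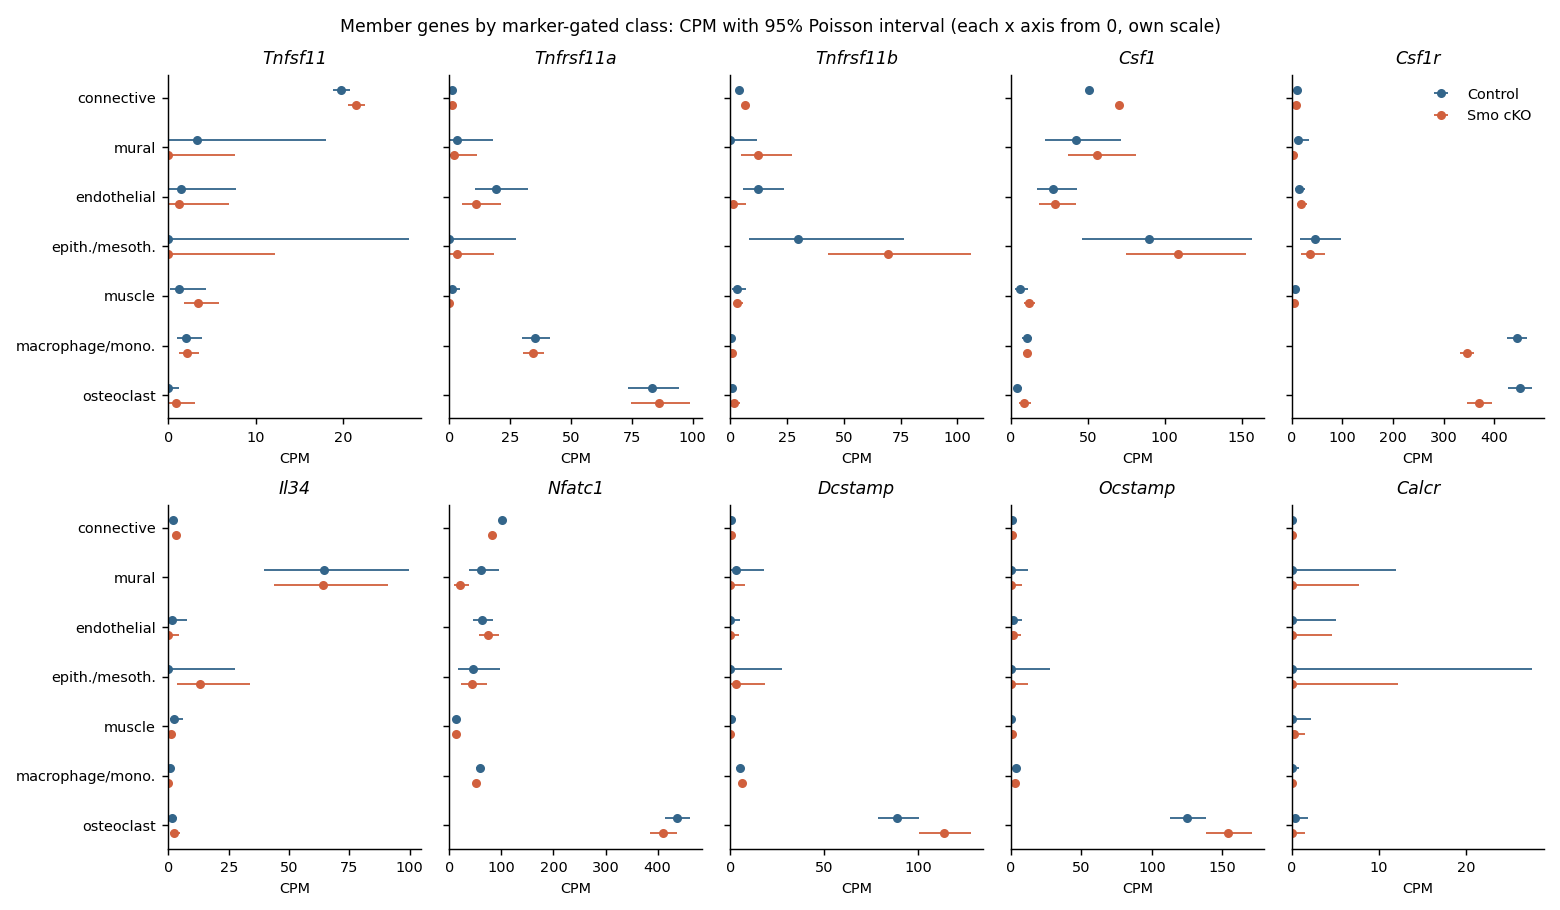
CPM of each of the 10 members (x axes, each from 0 with its own scale) in 7 marker-gated classes, as points for the Control and Smo cKO libraries with 95% Poisson intervals. Tnfsf11 and Csf1 lie on the stromal side, Csf1r, Tnfrsf11a, Dcstamp and Ocstamp on the myeloid side, Il34 in mural cells (64.6 and 64.3 CPM) and Nfatc1 on both.

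Nfatc1 (chr18:80606205-80713071, minus strand) was highest in osteoclast-like cells, at 438 CPM (414 to 462) in Control and 411 CPM (386 to 438) in Smo cKO, a log2 ratio of -0.09 (-0.21 to 0.03), or -0.62 (-1.19 to -0.09) in cells with at most 2000 genes. Connective-like cells held 79.4% and 78.8% of its UMIs, less than their share of all UMIs given above for Tnfsf11. It was at 101 CPM (98.9 to 103) and 82.9 CPM (81.0 to 84.8) there, a log2 ratio of -0.29 (-0.33 to -0.24). Over all kept cells it was at 109 and 84.9 CPM. Macrophage or monocyte-like cells were at 58.2 and 50.6 CPM, endothelial-like cells at 62.1 and 74.1 CPM and muscle-like cells at 12.5 and 13.4 CPM. At 1000 UMIs a cell, 9.82% and 8.63% of connective-like cells and 2% and 1.64% of muscle-like cells held a UMI. The ratio to the myeloid receptor differed by class. There were 9.24 and 9.17 Nfatc1 UMIs per Csf1r UMI in connective-like cells, 0.973 and 1.11 in osteoclast-like cells and 0.131 and 0.146 in macrophage or monocyte-like cells. All 3 connective-like subsets held it, at 89.3 and 75.0 CPM (Tnc and Inhba), 138 and 123 CPM (Sfrp4, Eln and Col14a1) and 115 and 102 CPM (Fmod, Acan and Col11a1).

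Dcstamp (chr15:39745930-39760938, plus strand) and Ocstamp (chr2:165393760-165400405, minus strand), the fusion genes, were the members most concentrated in osteoclast-like cells. That class held 68.9% and 67.8% of the Dcstamp UMIs and 74.8% and 74.5% of the Ocstamp UMIs, from 2.82% and 2.13% of all UMIs. Dcstamp was at 89.1 CPM (78.6 to 101) in Control and 114 CPM (100.5 to 128) in Smo cKO, a log2 ratio of 0.35 (0.10 to 0.60). Ocstamp was at 125 CPM (113 to 139) and 154 CPM (139 to 171), a log2 ratio of 0.30 (0.09 to 0.51), but in cells with at most 2000 genes that ratio was -0.44 (-2 to 0.85). Summed over the kept cells of all classes, where Smo cKO had the smaller share of osteoclast-like cells, Dcstamp was at 3.65 and 3.56 CPM and Ocstamp at 4.72 and 4.39 CPM, with ratio intervals that contain 0. Elsewhere the levels were low: macrophage or monocyte-like cells were at 4.99 and 6.16 CPM for Dcstamp and 3.63 and 2.54 CPM for Ocstamp. Dendritic-like cells lay between, at 25.3 and 45.4 CPM for Dcstamp and 13.6 and 21.2 CPM for Ocstamp. A Dcstamp UMI was found in 44.7% and 58.6% of osteoclast-like cells, and at 1000 UMIs a cell in 7.89% and 8.28%, a difference of 0.399 points (-4.60 to 6.17).

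Calcr (chr6:3685680-3764714, minus strand) was nearly undetected, with 9 UMIs in the kept Control cells and 8 in the kept Smo cKO cells. Osteoclast-like cells held 1 UMI among 284 cells and 0 among 169 cells, and 0 UMIs allow up to 1.27 CPM in the latter. Connective-like cells held 5 and 1 UMIs. No order between classes can be given for Calcr at this depth.

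**Figure D4:**
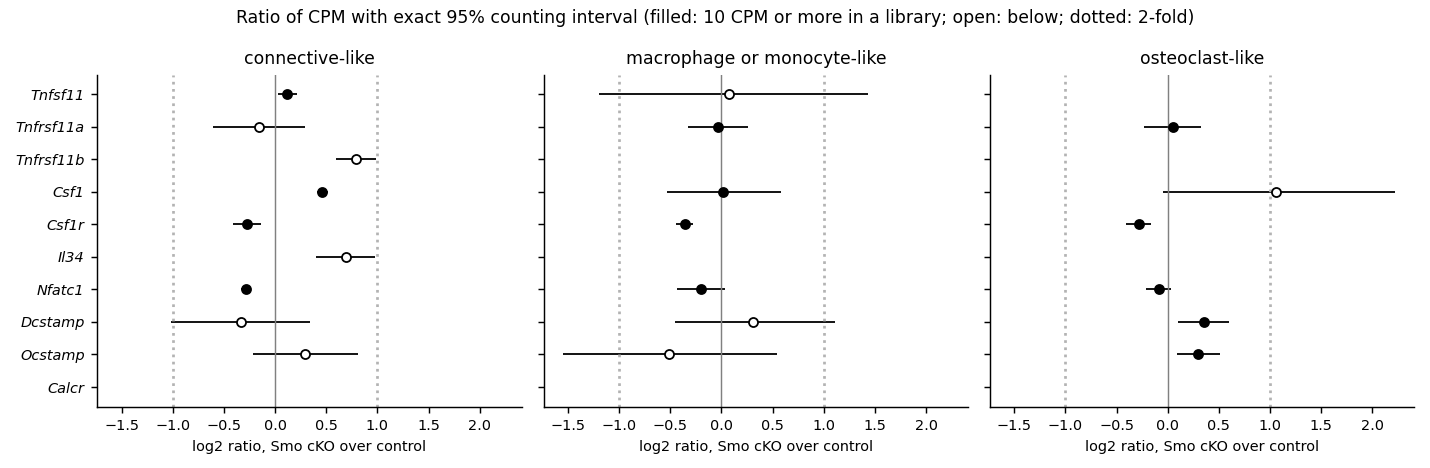
Log2 ratio of CPM, Smo cKO over Control, for each member in connective-like, macrophage or monocyte-like and osteoclast-like cells, with exact 95% counting intervals (filled points at 10 CPM or more in a library, open points below, dotted lines at 2-fold). All filled points lie inside the dotted lines, and Csf1 (0.46) and Nfatc1 (-0.29) in connective-like cells have the narrowest intervals.

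No member at 10 CPM or more was past 2-fold in any of the 3 classes. In connective-like cells 4 members reached 10 CPM, with a median log2 ratio of -0.08 beside 0.02 over 7284 genes, of which 0.947% lay 2-fold or more above Control and 0.261% lay 2-fold or more below it. Macrophage or monocyte-like cells also had 4, with a median of -0.12 beside -0.06 over 7025 genes, of which 1.52% lay that far above and 0.327% that far below Control. In osteoclast-like cells 5 members reached 10 CPM, with a median of 0.05 beside 0.07 over 6969 genes, of which 2.25% lay that far above and 0.574% that far below Control. Shares this small give less than 1 gene for lists of 4 or 5, so a count of 0 says nothing particular about the members.

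The members that take part in osteoclast maturation also differed in how they varied between single cells. Macrophage or monocyte-like and osteoclast-like cells were binned by how many of 10 osteoclast markers (none of them a member) each held. From cells with 0 or 1 marker to cells with 8 to 10, Csf1r went from 464 to 492 CPM in Control. In Smo cKO it went from 361 to 365 CPM, so the first and last bins were close. Cells with 2 or 3 markers were lower, at 364 CPM (324 to 409) in Control and 293 CPM (268 to 319) in Smo cKO. These intervals lie below those of the first bin (442 to 487 and 346 to 377), but this did not hold for the thinned marker counts given below. Between the first and last bins Tnfrsf11a went from 35.1 to 80.1 CPM and from 36.6 to 85.1 CPM, which is 1.19 and 1.22 on the log2 scale. Nfatc1 was at 44.7, 151, 427, 444 and 435 CPM over the 5 bins in Control, where the intervals of the last 3 bins overlap. In Smo cKO it was at 35.7, 94.2, 341, 478 and 360 CPM, and the interval of the 6 to 7 marker bin (436 to 523) lies above those of the bins on either side (298 to 388 and 326 to 397). With markers counted after thinning to 2000 UMIs, the highest Smo cKO bin was instead that of 4 to 5 markers, at 435 CPM (398 to 474). The 6 to 7 marker bin was then at 386 CPM (344 to 432). With the same thinned marker counts, Csf1r in Control was higher at 2 or 3 markers than in the first bin. It was at 444 CPM (407 to 484) against 403 CPM (382 to 425). In Smo cKO it was at 302 CPM (271 to 337) against 334 CPM (320 to 349). The intervals of these 2 bins overlap in each library. Without thinning, Dcstamp and Ocstamp were highest in the last bin, at 136 and 170 CPM for Dcstamp and 202 and 223 CPM for Ocstamp. On the log2 scale this is 4.70 and 4.91 above the first bin for Dcstamp and 6.05 and 6.60 for Ocstamp. Depth moved with the bins, from medians of 2286.5 and 2963 UMIs in the first to 12572.5 and 17939 UMIs in the last. Its part in the order was not tested beyond the thinned values given here and at the end.

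**Figure D5:**
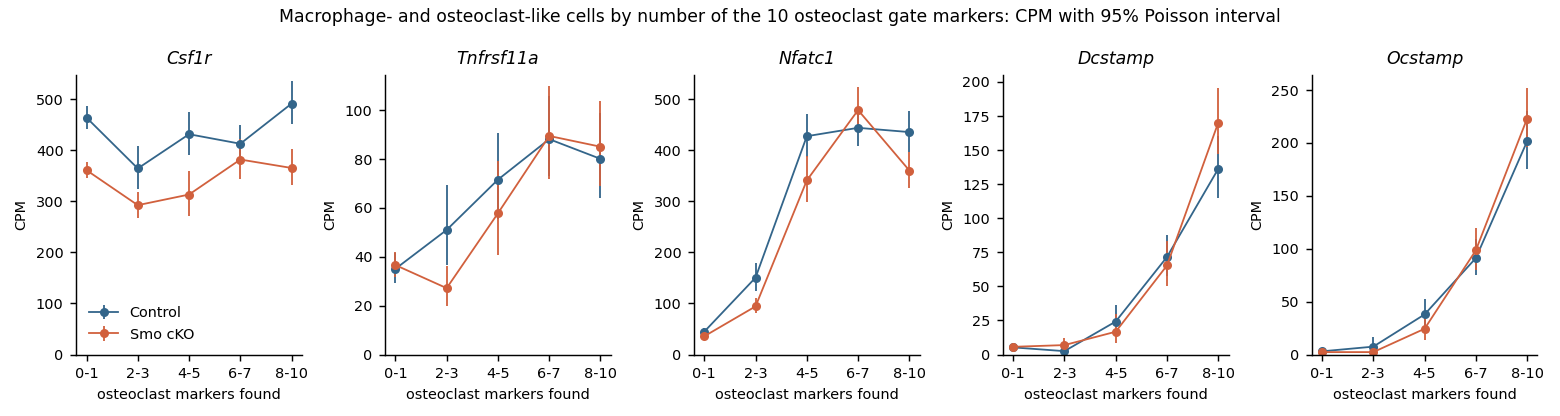
CPM of 5 members (y axes, each from 0 with its own scale) in macrophage or monocyte-like and osteoclast-like cells by the number of osteoclast markers found (x axis, 5 bins), as points and lines for each library with 95% Poisson intervals. Csf1r stays between 293 and 492 CPM, Nfatc1 is at 427 CPM or more from 4 to 5 markers on in Control and highest at 6 to 7 markers (478 CPM) in Smo cKO, and Dcstamp and Ocstamp are highest at 8 to 10 markers.

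Other genes of the pathway were counted in the same way. Of 28 signalling and transcription genes, 14 reached 10 CPM in connective-like, 22 in macrophage or monocyte-like and 21 in osteoclast-like cells, with median log2 ratios of -0.01, -0.21 and -0.06 beside 0.02, -0.06 and 0.07 over all genes of those classes. Of these, 0, 0 and 1 were past 2-fold in either direction, beside 1.21%, 1.85% and 2.83% of all genes, so the counts are near the background. The 1 gene was Irf8, a repressor of osteoclast formation, in osteoclast-like cells at 13.6 CPM in Control and 5.09 CPM in Smo cKO, a log2 ratio of -1.42 (-2.48 to -0.46) from 40 and 12 UMIs. In connective-like cells the highest ratio was that of Fos, a subunit of AP-1, at 232 and 344 CPM (0.57), and the lowest that of Mitf (-0.66). In macrophage or monocyte-like cells the highest was Trem2, at 505 and 652 CPM (0.37). It is a receptor that signals through the adaptor Tyrobp and is itself one of the genes used to mark macrophage subsets. Fcer1g came next in these cells (0.35) and in connective-like cells (0.35). Fcer1g and Tyrobp are markers of the macrophage or monocyte-like class, so its count and median above include genes that formed it. Src (-0.65) and Traf6, the adaptor of RANK (-0.57), were lowest in macrophage or monocyte-like cells. In osteoclast-like cells Vav3 (0.27) and Traf6 (0.25) were highest and Tec (-0.58) was lowest after Irf8. All 8 genes of acid secretion reached 10 CPM in the 3 classes, with medians of -0.07, -0.25 and 0.07 and none past 2-fold. Among them Tcirg1, a subunit of the proton pump, was highest in connective-like (0.26, 0.16 to 0.36) and macrophage or monocyte-like cells (0.07, -0.10 to 0.23). Clcn7, the chloride transporter of the resorbing membrane, was highest in osteoclast-like cells (0.26, -0.02 to 0.55). The lowest in connective-like cells were Atp6v1b2 (-0.49, -0.56 to -0.43) and Clcn7 (-0.37, -0.51 to -0.24). In macrophage or monocyte-like cells they were Clcn7 (-0.50, -0.76 to -0.23) and Atp6v1b2 (-0.38, -0.50 to -0.26). In osteoclast-like cells the lowest was Atp6v1b2 (-0.01, -0.10 to 0.08).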

How the data were processed

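Single-cell RNA sequencing was made from 1 Control and 1 Smo cKO library of rib callus at 4 days, each from 3 pooled animals. Per the labels and the study's methods, the authors aligned reads to mm10 with Cell Ranger 3.0.2 and deposited raw UMI counts for each gene and barcode, without normalization. The deposited matrices hold 10747 and 10512 barcodes with 105367110 and 112700220 UMIs, and 0 columns of per-sample values were left unused.

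Cells with at least 200 genes and under 10% of UMIs on the 13 genes starting with mt- were kept. The study's upper limit of 2000 genes was an alternative. A cell went to the class with the highest scaled mean marker level (at least 0.2, with a margin of 0.08 over the next class), and cells with 2 classes close were left unnamed, which also served as the treatment of doublets: Scrublet marked 0 and 2 cells and so had not worked. Cells with 20% or more hemoglobin UMIs were erythroid-like. The member genes, marker lists and pathway lists were chosen with earlier results of these data known, and the gate thresholds, the hemoglobin rule and the clustering resolution were set after seeing the data, so a difference from the study's cell types may come from the rebuilt names.

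CPM is the summed UMIs of a class scaled to the total UMIs of that class in the usual way, with exact 95% Poisson intervals. Shares of cells have Clopper-Pearson intervals, ratios exact intervals of 2 Poisson counts and differences of shares Newcombe intervals, all covering counting error only. A count of 0 is given the limit of 3 UMIs. UMIs are not divided by gene length, so levels of different genes are not ranked. Cells are not replicates and no p-value was computed. Cells were thinned without replacement to 1000 UMIs, which left out 353 and 192 connective-like, 119 and 88 macrophage or monocyte-like and 5 and 0 osteoclast-like cells. Genes named are the members, the 2 highest and 2 lowest pathway genes of a class at 10 CPM or more, and the 3 genes whose log2(CPM + 1) over 13 classes in both libraries correlated best with each member. Coordinates are from GENCODE vM21 (GRCm38), to which 30934 of 31054 features were matched. Scripts used Python 3.11.15, numpy 2.4.6, scipy 1.17.1, pandas 2.3.3 and scanpy 1.11.5, and were tested on simulated data.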

Additional observations from a re-analysis of the deposited data

How the results depend on the processing

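No paired analysis was possible because each genotype is 1 library. For the same reason the spread between animals is unknown, and ratios of genes with few UMIs are limited by depth. Of 55 member ratios, 30 stayed inside their interval under every alternative and 6 changed sign under at least 1. Leaving out the shallower copy of shared barcodes or the top 8% of Scrublet scores (805 and 761 cells), both chosen after seeing the data, moved none of the 13 main ratios outside its interval, nor did a stricter gate, no mitochondrial filter or scaling by the median gene ratio. In cells with at most 2000 genes the log2 ratio was reversed for Csf1 in connective-like cells (-0.40) and Ocstamp in osteoclast-like cells (-0.44), and among lesser values for Csf1r in connective-like cells (0.50) and the Tnc and Inhba subset (1.36) and for Nfatc1 in the Tnc and Inhba (0.24) and Sfrp4, Eln and Col14a1 (0.22) subsets. There the ratios of Tnfsf11 (0.78), Il34 (1.28) and Nfatc1 (-0.13) in connective-like cells and of Tnfrsf11a (-0.27), Csf1r (-0.06) and Nfatc1 (-0.62) in osteoclast-like cells also left their intervals. With Louvain clusters in place of the gate, the Nfatc1 ratio in macrophage or monocyte-like cells was -0.76, and subsets have no value. The cause of these shifts was not tested. Without thinning, the difference in the share of cells with a UMI was 0.867 points for Tnfsf11 and 12.7 for Csf1 in connective-like cells, 0.0579 (reversed) for Csf1r in macrophage or monocyte-like cells, and 14.8 for Tnfrsf11a, 13.9 for Dcstamp and 11.4 for Ocstamp in osteoclast-like cells. Thinned to 2000 UMIs, it was -3.66 for Nfatc1 in connective-like and -1.97 for Tnfrsf11a in osteoclast-like cells. Osteoclast markers were also counted after thinning to 2000 UMIs, with only 3 and 6 cells in the last bin. The log2 ratio of the last over the first bin was then 0.94 (-1.35 to 2.52) for Tnfrsf11a in Control and 1.76 (0.83 to 2.56) in Smo cKO. For Csf1r it was 0.57 (-0.08 to 1.15) in Control and 0.49 (0.07 to 0.89) in Smo cKO, so the bins were less close than without thinning. It was 2.14 and 2.63 for Nfatc1 in Control and Smo cKO, and 4.83 and 5.94 for Dcstamp. Without the 10 CPM filter, 1 of 28, 2 of 26 and 5 of 25 signalling genes were past 2-fold in connective-like, macrophage or monocyte-like and osteoclast-like cells, beside 10.4%, 11% and 12.8% of 18896, 13845 and 12288 genes.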

Other observations

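Among osteoclast-like cells thinned to 5000 UMIs, those with a Dcstamp UMI held more Ocstamp than those without. In Control 85 cells with Dcstamp were at 174 CPM of Ocstamp and 175 cells without it at 80.0 CPM, and Ocstamp was found in 54.1% (43.0 to 65.0) and 29.1% (22.5 to 36.5) of them. In Smo cKO the levels were 212 and 82.5 CPM, from 52 and 114 cells, with shares of 57.7% (43.2 to 71.3) and 32.5% (24.0 to 41.9). Nfatc1 did not share this order, at 395 and 472 CPM in Control and 392 and 468 CPM in Smo cKO. In connective-like cells at the same depth, Csf1 was at 41.4 CPM in Control cells with a Tnfsf11 UMI and 61.7 CPM in those without one. In Smo cKO it was at 70.1 and 74.5 CPM. Csf1 was found in 17.3% (13.9 to 21.1) and 20.5% (19.4 to 21.6) of these cells in Control. The shares were 26.7% (22.3 to 31.5) and 26.5% (25.3 to 27.8) in Smo cKO, and the intervals overlap within each library.

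The genes whose levels over 13 classes in both libraries (26 points, which share libraries and depth) were most like each member were, with Pearson's r as a description, Kcnk1 (0.67) for Tnfsf11, Thsd4 (0.90) for Tnfrsf11b, Ndn (0.84) for Csf1, Npy1r (0.91) for Il34, Ocstamp (0.83) for Tnfrsf11a, Cd68 (0.90) for Csf1r, Acp5 (0.80) for Nfatc1 and Dcstamp and Ocstamp for each other (0.88). Cd68 and Acp5 are among the markers that formed the classes. In the 2 largest named connective-like subsets Tnfsf11 and Csf1 stood in opposite order, and neither is a marker of them. Neutrophil-like cells held 13 Csf1 UMIs in Control, at 127 CPM from 5.33% of the cells, and 1 in Smo cKO, at 4.13 CPM. Cells with 2 classes close held Csf1r at 195 CPM in Control and 78.7 CPM in Smo cKO, and Tnfrsf11a at 37.4 and 11.5 CPM.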
